A study of Rattus norvegicus with 6 samples.

Results

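The imprinted Dlk1-Dio3 microRNA cluster was measured in the plasma of 3 rats. Its members were taken by name: every rat microRNA of the array whose number, with any letter or arm, is 1 of 44 numbers known from this cluster. This rule gave 89 of the 758 microRNAs on the array. It uses names and no measured value, but it was set with earlier results of these data known. RefSeq (assembly GRCr8) held a mature sequence for 86 of the 89 (96.6%), and the sequences of all 86 lay on chromosome 6 between Dlk1 and Dio3, so that the label fitted the positions. The sequences of rno-miR-127-5p, rno-miR-136-5p and rno-miR-679 were not used here.

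The rats were male Sprague-Dawley animals aged 10 weeks that had received no treatment. From each of the 3 rats, arterial blood was taken from the abdominal aorta and venous blood from the postcava (the inferior vena cava), so that the groups compared are 3 arterial and 3 venous plasma samples, paired by rat. Blood was drawn into EDTA, and the plasma was centrifuged again and passed through a filter before RNA extraction. Each sample was hybridized to its own 1-colour Agilent rat microRNA array, and the question was whether a microRNA had the same level in the artery and the vein of a rat.

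In placental mammals the cluster is imprinted. Its microRNAs are made from the maternal chromosome, as part of long noncoding transcripts named Meg3, Rtl1 antisense, Meg8 (also called Rian) and Mirg. The protein-coding genes Dlk1, Rtl1 and Dio3 are expressed mainly from the paternal one. The cluster is one of the largest microRNA clusters of placental mammals. Its microRNAs are known from embryo and placenta, and in the adult mainly from brain. A microRNA is cut from a hairpin whose 5p and 3p arms can each give a mature strand, and bases 2 to 8 of that strand, the seed, pair with target transcripts.

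Feature Extraction, the software that read the arrays, called 8 of the 89 members detected on at least 1 array. Their mature sequences are shown because every measured value below rests on them, with the seed in capitals.
rno-miR-770-3p: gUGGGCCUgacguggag
rno-miR-433-5p: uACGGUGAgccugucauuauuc
rno-miR-370-3p: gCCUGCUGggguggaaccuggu
rno-miR-494-3p: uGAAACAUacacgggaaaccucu
rno-miR-667-3p: uGACACCUgccacccagcccaa
rno-miR-300-5p: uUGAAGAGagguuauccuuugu
rno-miR-134-5p: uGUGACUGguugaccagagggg
rno-miR-409a-3p: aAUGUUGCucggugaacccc
They are listed in their order along the plus strand of chromosome 6. The first, rno-miR-770-3p, lies at chr6:134298129-134298145, within the span annotated for Meg3. The next, rno-miR-433-5p, lies at chr6:134327369-134327390, within the span of Rtl1, and rno-miR-370-3p at chr6:134354538-134354559, in the Meg8 stretch. The remaining 5 lie in the Mirg stretch: rno-miR-494-3p at chr6:134550163-134550185, rno-miR-667-3p at chr6:134555392-134555413, rno-miR-300-5p at chr6:134559923-134559944, rno-miR-134-5p at chr6:134570320-134570341 and rno-miR-409a-3p at chr6:134579231-134579250. The 8 seeds differ from each other, and none of them occurs in another array microRNA with a RefSeq sequence.

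The RefSeq annotation places the members in 42 hairpins. They run from Mir770 to the last hairpin over 281.754 kb, with a gap of 188.876 kb between Mir370 and Mir379. In this gap RefSeq lists small nucleolar RNAs, and 84 of them lie between the hairpins. Of the 86 placed members, 3 lie on the minus strand, namely both arms of rno-miR-299b and rno-miR-409b. The last of these is read from the strand opposite to rno-miR-409a-3p, spanning its bases, as the pair of sequences shows (seeds in capitals).
rno-miR-409a-3p: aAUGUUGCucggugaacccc
rno-miR-409b: aGGGGUUCaccgagcaacauucg
Among the 86 members there were 80 different seeds, and 5 seeds were shared by 11 members. The shared seeds belong to rno-miR-381-3p and rno-miR-539-3p, to the 3p arms of rno-miR-299a and rno-miR-299b, to their 5p arms, to the 5p arms of rno-miR-376b and rno-miR-376c, and to rno-miR-410-5p, rno-miR-494-5p and rno-miR-496-5p. None of these 11 was detected on any array.

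Most of the cluster was not detected in rat plasma. On all 6 arrays 5 members were detected (5.62% of 89), namely rno-miR-134-5p, rno-miR-370-3p, rno-miR-409a-3p, rno-miR-494-3p and rno-miR-770-3p. On some arrays 3 were detected: rno-miR-433-5p on 4, and rno-miR-300-5p and rno-miR-667-3p on 2 each. The other 81 were detected on none. Among the 669 other microRNAs of the array, 121 (18.1%) were detected on all 6 arrays and 193 (28.8%) on at least 1, against 8.99% of the cluster. These shares are a description, with no test. In RNA of plasma, release from fewer cells and less RNA released per cell cannot be told apart.

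**Figure D1:**
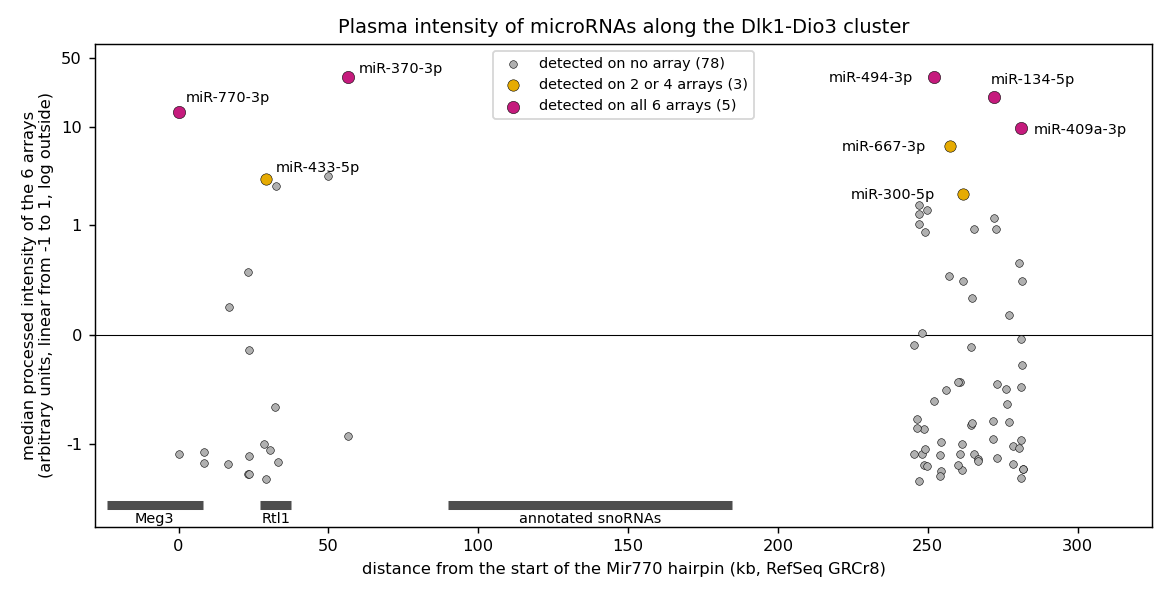
Each point is 1 of the 86 placed members, at its distance in kb from the start of the Mir770 hairpin (x axis) and its median processed intensity over the 6 arrays (y axis, arbitrary units, linear from -1 to 1 and logarithmic outside). Bars mark the spans of Meg3, Rtl1 and the annotated small nucleolar RNAs. The 8 detected members are spread over both ends of the cluster among undetected neighbours, and heights of different microRNAs cannot be compared because their probes differ.

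The detected members did not come from 1 end of the cluster. In the stretch from Meg3 to Rtl1 antisense, 2 of 20 members were detected on at least 1 array, in the Meg8 stretch 1 of 3, and in the Mirg stretch 5 of 66. By arm, 5 of 41 named 3p and 3 of 41 named 5p were detected, and none of the 7 whose name gives no arm. The array carried both arms of 41 hairpins. In 8 of them 1 arm was detected, in 33 neither was, and in none were both. The processed intensities of the 8 opposite arms lay between -2.63 and 1.47 over all arrays. On every array 4 of these arms were below the floor of 1: rno-miR-370-5p, rno-miR-433-3p, rno-miR-494-5p and rno-miR-770-5p. The other 4 were rno-miR-134-3p, rno-miR-300-3p, rno-miR-409a-5p and rno-miR-667-5p. The hairpins Mir134, Mir370 and Mir494 show where the detected arm sits (in capitals), on the 5p side in the first and on the 3p side in the others.
Mir134: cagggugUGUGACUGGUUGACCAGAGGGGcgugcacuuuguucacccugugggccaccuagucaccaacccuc
Mir370: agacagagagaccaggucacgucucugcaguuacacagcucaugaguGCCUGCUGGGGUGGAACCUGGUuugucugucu
Mir494: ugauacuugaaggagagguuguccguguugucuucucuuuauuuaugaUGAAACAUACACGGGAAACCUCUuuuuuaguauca
The hairpins lie on the plus strand at chr6:134570313-134570385, chr6:134354491-134354569 and chr6:134550115-134550197.

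The 81 members detected on no array lay for the most part at the level of the negative control spots. Their processed intensity, in arbitrary units with the local background subtracted, had a median between -1.09 and -0.349 on the 6 arrays. The negative control spots had medians between -1.18 and -0.678, with a spread within an array of 1.53 to 1.96 (SD over spots). After normalization 61 of the 81 were below the floor of 1 on every array, 17 were above it on some and 3 on all 6. Of their 7776 spots on the 6 arrays, 30 were called well above background, spread over 26 members. They include rno-miR-127-3p, a placental microRNA that is fully complementary to the Rtl1 transcript, which was below the floor on every array. The 3 above the floor on every array were rno-miR-299b-5p, rno-miR-341 and rno-miR-434-3p, the last also complementary to Rtl1. These 4 are named after their values were seen. The highest processed intensity of any undetected member was 7.50, for rno-miR-341 in the arterial plasma of rat 1, and no spot of rno-miR-341 was well above background on any array. For rno-miR-434-3p the normalized log2 values of rats 1, 2 and 3 were 1.15, 1.30 and 1.40 in the artery and 1.09, 1.20 and 0.73 in the vein. The artery was higher in each rat, while the groups, taken without the pairing, overlapped. No difference is given because no spot of rno-miR-434-3p was well above background either.

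The members rno-miR-539-3p and rno-miR-543-3p, which the paper names, were detected on no array. For rno-miR-543-3p the processed intensities of rats 1, 2 and 3 were -0.123, -1.41 and 0.308 in the artery and -1.92, -1.63 and -0.561 in the vein. For rno-miR-539-3p they were -0.752, -1.46 and -1.08 in the artery and -1.66, -1.75 and -0.737 in the vein. For rno-miR-543-3p the artery was higher in every rat, and for rno-miR-539-3p in rats 1 and 2 but not in rat 3. All 12 values lay below the floor of 1, and no spot of either was well above background. After normalization both stood at the floor on every array, so that no difference was measured for them.

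The authors' quantile-normalized table, made without background subtraction, holds positive values for members that no array detected. For rno-miR-543-3p it gives rats 1, 2 and 3 values of 38.1, 38.8 and 45.1 in the artery and 35.8, 37.3 and 43.3 in the vein. For rno-miR-539-3p the values are 38.2, 38.8 and 41.0 in the artery and 36.1, 37.8 and 39.0 in the vein, and for rno-miR-127-3p they are 38.5, 39.3 and 42.3 in the artery and 36.8, 38.5 and 39.7 in the vein. All 3 were higher in the artery of every rat in that table, with overlapping groups. Of the 81 undetected members 6 were, against 26 of all 557 undetected microRNAs (4.67%), while 21 of the 81 and 117 of the 557 were higher in the vein of every rat.

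The number of detected members was about the same in artery and vein. Rats 1, 2 and 3 had 7, 7 and 6 detected members in the artery and 5, 7 and 6 in the vein. This averaged 6.67 ± 0.577 for the artery and 6 ± 1 for the vein (SD, n = 3), so that the groups overlapped. Fewer members were detected when most spots of a microRNA had to be well above background. The counts for rats 1, 2 and 3 were then 2, 2 and 3 in the artery and 2, 2 and 4 in the vein. Under this stricter rule the counts over all microRNAs are not given. Over all microRNAs the arrays detected between 137 and 175, and the array with the fewest members, venous plasma of rat 1, also had the fewest over all. The median intensity of an array, over the 126 microRNAs that every array detected, ran from 17.2 to 52.9, with the venous samples at both extremes. The part of these differences between arrays in the number of members detected was not tested.

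Between arterial and venous plasma no member differed past the cutoff in the background-subtracted values used here. With limma, rat as block, 0 of 89 members had an unadjusted p of 0.025 or less, against 6 of all 758 microRNAs (0.792%). At a Benjamini-Hochberg adjusted p of 0.05 in limma, 0 members and 0 of the 758 (0%) were called, and the smallest adjusted p over all was 0.241. At an unadjusted p of 0.05 limma called 1 member, rno-miR-300-5p, and 12 of the 758. The methods' t-test called 0 members at this level, and its count over all 758 is not given. Here it was run on the floored values and not on the authors' table. Only 28 members had a normalized value above the floor on any array, so that for the other 61 no difference was measured. The same held for 378 of all 758 microRNAs. Every member had an adjusted p of 1 in limma.

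Among the 5 members detected on every array, the median log2 difference (arterial minus venous) was -0.07, beside -0.00 for all 126 such microRNAs, whose differences ran from -0.87 to 1.16. By rat the median of the 5 was 0.30 in rat 1, 0.03 in rat 2 and -0.45 in rat 3. None of the 5 moved the same way in all 3 rats, which 25 of the 126 did (19.8%), and for none did the arterial and venous values fail to overlap, which held for 6 of the 126 (4.76%). In all 5 the range of the 3 rat means was larger than the mean absolute difference within a rat, as it was in 105 of the 126 (83.3%). A range of means and an average of differences are unlike measures, so nothing is read from which is larger. Both arrays of rat 3 also lie on a slide of their own.

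**Figure D2:**
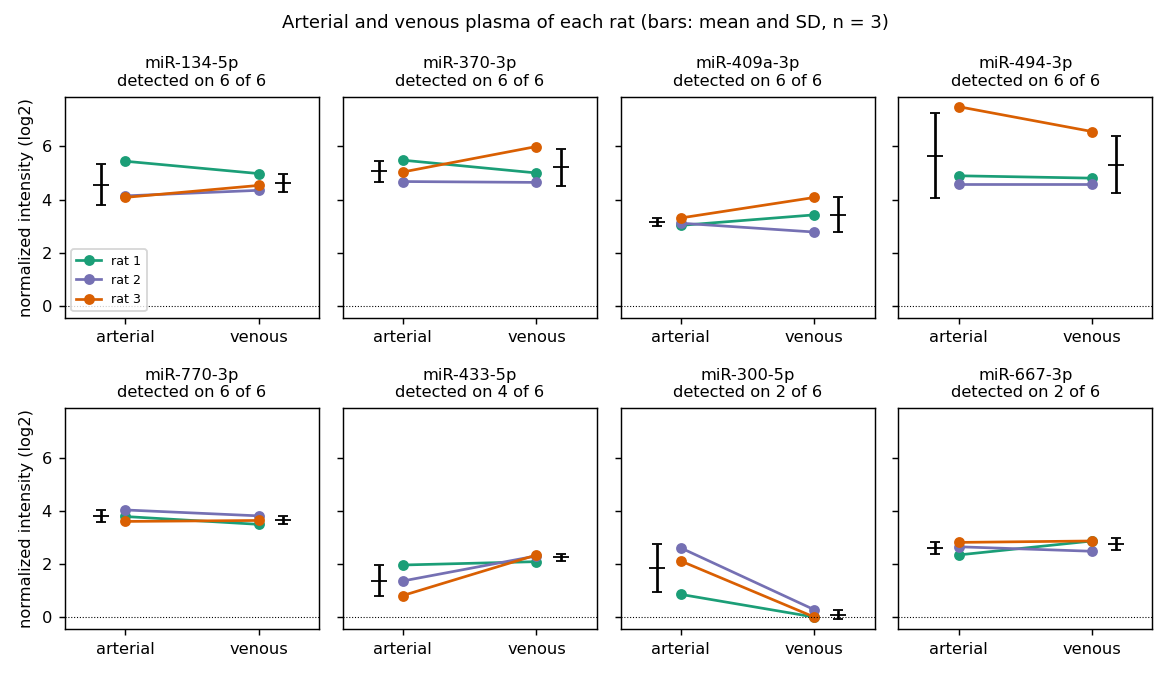
Normalized log2 intensity (y axis) of the 8 detected members in arterial and venous plasma (x axis), with a line for each rat and bars for the mean and SD of the 3 samples. None of the 5 members detected on all 6 arrays moves the same way in all 3 rats, rno-miR-494-3p stands higher in both samples of rat 3, and the groups of rno-miR-300-5p and rno-miR-433-5p do not overlap.

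The member that varied most between rats was rno-miR-494-3p, a microRNA studied in heart and skeletal muscle. Rats 1, 2 and 3 had processed intensities of 32.5, 31.4 and 125.8 in the artery and 17.2, 32.5 and 43.6 in the vein. After normalization their log2 intensities were 4.89, 4.58 and 7.50 in the artery and 4.80, 4.58 and 6.56 in the vein, so that both samples of rat 3 lay above all 4 samples of the other rats, and rat 2 had the same value in artery and vein. The artery averaged 5.66 ± 1.60 and the vein 5.31 ± 1.08 (SD, n = 3), and the log2 difference of 0.34 had a standard error of 0.285 and an adjusted p of 1 in limma. The range of its rat means was 2.45 on the log2 scale, against a mean absolute difference within rats of 0.34.

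The mean of rat 3 exceeded that of rats 1 and 2 by 2.31 on the log2 scale for rno-miR-494-3p, rank 1 of the 126 microRNAs detected on every array. The median of the 126 was 0.06. It kept rank 1 without normalization between arrays (1.43) and in the authors' table (1.49). Both probes were highest in rat 3: the brighter read 30.6 to 228.1 and the dimmer 3.79 to 23.4 over the 6 arrays, each with its highest value in the artery and its next in the vein of rat 3. The dimmer probe had spots well above background in rat 3 only, 8 of 8 in the artery and 6 in the vein. Both arrays of rat 3 lie on 1 slide and the 4 of rats 1 and 2 on the other, so that rat and slide cannot be told apart. The difference was picked out after its values were seen, and no test is given.

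**Figure D3:**
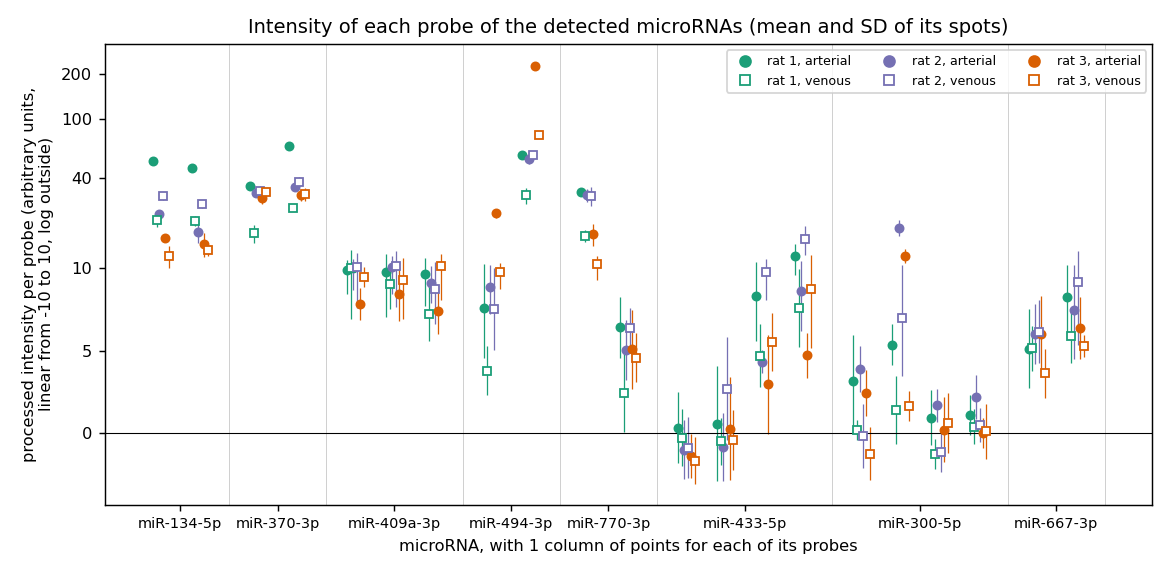
Mean processed intensity of each probe of the 8 detected members (y axis, arbitrary units, linear around 0 and logarithmic above 10), with 1 column of points per probe, filled for arterial and open for venous plasma, a colour per rat and bars for the SD over the spots of the probe. Both probes of rno-miR-494-3p are highest in the arterial plasma of rat 3, and in rno-miR-300-5p and rno-miR-433-5p the 4 probes differ in whether they carry signal.

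For rno-miR-134-5p, a brain microRNA that restrains Limk1 in dendritic spines, rat 1 was the high animal. The processed intensities of rats 1, 2 and 3 were 49.6, 20.1 and 15.2 in the artery and 20.7, 28.5 and 12.6 in the vein. On the normalized log2 scale they were 5.44, 4.14 and 4.08 in the artery and 4.98, 4.35 and 4.53 in the vein. Rat 1 was higher in the artery and rats 2 and 3 in the vein, and the groups overlapped. The artery averaged 4.55 ± 0.772 and the vein 4.62 ± 0.324 (SD, n = 3), and limma gave a log2 difference of -0.07 with a standard error of 0.262 (adjusted p = 1). The first probe read 12.1 to 52.2 over the 6 arrays and the other 13.2 to 47.1, and at least 14 of its 16 spots were well above background on every array.

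The only detected member of the Meg8 stretch was rno-miR-370-3p, known from lipid metabolism in liver. It read 50.9, 33.4 and 30.0 in processed intensity in the artery of rats 1, 2 and 3, and 21.2, 35.5 and 31.7 in the vein. On the normalized log2 scale this became 5.48, 4.68 and 5.04 in the artery and 5.00, 4.64 and 6.0 in the vein. The artery was higher in rats 1 and 2 and the vein in rat 3. The averages were 5.06 ± 0.403 for the artery and 5.21 ± 0.701 for the vein (SD, n = 3), which differed by -0.15 in limma with a standard error of 0.406 (adjusted p = 1). All 16 of its spots were well above background on every array.

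At the start of the cluster, rno-miR-770-3p, which is cut from the Meg3 transcript, had the smallest range of normalized rat means among the 5, 0.303 on the log2 scale. Processed intensities of 19.4, 17.8 and 10.9 were read in the artery of rats 1, 2 and 3, and of 9.44, 18.4 and 7.56 in the vein. The normalized log2 values were 3.79, 4.03 and 3.60 in the artery and 3.49, 3.81 and 3.64 in the vein. It was higher in the artery of rats 1 and 2 and level in rat 3 (-0.04), and the groups overlapped. In limma the artery exceeded the vein by 0.16 on the log2 scale, with a standard error of 0.0964 (adjusted p = 1). Of its 2 probes only 1 had spots well above background.

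At the other end, rno-miR-409a-3p, known to act on fibrinogen transcripts, lay close to background. Its processed intensity was between 7.88 and 9.76 on all arrays. Normalized log2 values were 3.03, 3.11 and 3.30 in the artery of rats 1, 2 and 3 and 3.42, 2.78 and 4.08 in the vein, so that the vein was higher in rats 1 and 3 and the artery in rat 2. The log2 difference of -0.28 had a standard error of 0.310 and an adjusted p of 1 in limma. Of its 16 spots 9 were well above background in the venous plasma of rat 3, 1 in each sample of rat 1, 1 in the venous plasma of rat 2, and 0 in the others.

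**Figure D4:**
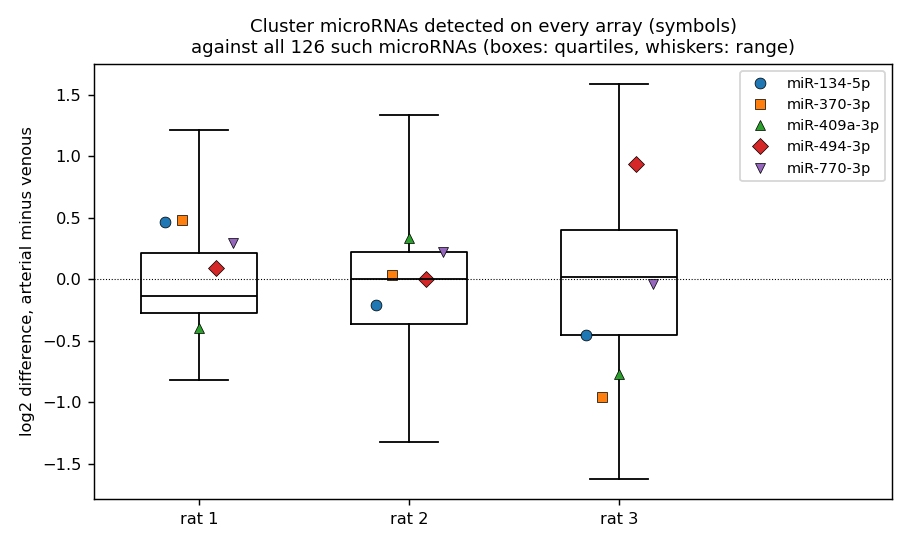
Log2 difference, arterial minus venous (y axis), in each rat (x axis) for the 5 members detected on every array (symbols), beside all 126 such microRNAs (boxes for the quartiles, whiskers for the range). The 126 include the 5, and none of the 5 stays on 1 side of 0 in all 3 rats.

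Of the 8 members detected on at least 1 array, rno-miR-300-5p alone was higher in the artery of every rat and rno-miR-433-5p alone in the vein of every rat, and each was detected on some arrays only. For both, the arterial and venous values did not overlap: 2 of the 8, against 9 of all 201 such microRNAs (4.48%). A member detected in 1 plasma type only enters this count through it, so that nothing is read from the share. The normalized log2 values of rno-miR-300-5p were 0.86, 2.61 and 2.11 in the artery of rats 1, 2 and 3 and 0, 0.28 and 0 in the vein, where 0 is the floor. The artery averaged 1.86 ± 0.903 and the vein 0.09 ± 0.159 (SD, n = 3), with an adjusted p of 1 in limma.

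The signal of rno-miR-300-5p came from 1 of its 4 probes. That probe read 5.35, 18.6 and 12.0 in the artery of rats 1, 2 and 3 and 1.40, 6.97 and 1.63 in the vein, where the spread between its spots reached 3.50 (SD). It was higher in the artery in each rat. Spots well above background were found in rats 2 and 3 only, in the artery (4 and 3 spots), on the arrays that called it detected. The other 3 probes had none on any array. Since no venous spot was well above background, the venous level is a bound, and no fold is given because the bound exceeds the arterial mean.

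For rno-miR-433-5p, which lies in the stretch antisense to Rtl1, rats 1, 2 and 3 had processed intensities of 5.29, 2.77 and 1.64 in the artery and 2.88, 6.77 and 3.04 in the vein. Before normalization rat 1 was higher in the artery and the other rats in the vein. After normalization the log2 values were 1.96, 1.36 and 0.81 in the artery and 2.09, 2.30 and 2.34 in the vein. Limma gave a log2 difference of -0.87 with a standard error of 0.388 (adjusted p = 1). The difference in rat 1 was -0.13. Here too only 1 of the 4 probes had spots well above background, 1 in the arterial plasma of rat 1 and 3 and 2 in the venous plasma of rats 2 and 3.

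The last of the 3, rno-miR-667-3p, was called detected in the arterial plasma of rat 1 and the venous plasma of rat 2. Its normalized log2 intensities were 2.34, 2.65 and 2.81 in the artery of rats 1, 2 and 3 and 2.87, 2.48 and 2.87 in the vein, and the groups overlapped. Its adjusted p was 1 in limma. Over all arrays 2 of its spots were well above background, 1 each in the venous plasma of rats 2 and 3. No arterial spot was, so that the arterial level is a bound and no fold or difference is given.

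Base composition was set beside detection. The 5 members detected on every array had a median of 59.1% G and C in the mature sequence (43.5 to 70.6), the 3 detected on some 45.5% and the 78 detected on none 47.8%. Outside the cluster the medians were 50% for the 109 microRNAs with a sequence that were detected on every array and 45.8% for the 424 detected on none. Among members with 60% G and C or more, 3 of 12 (25%) were detected on at least 1 array, against 40 of 92 (43.5%) outside the cluster. In the class from 50 to below 60% it was 2 of 30 (6.67%) against 54 of 183 (29.5%), and from 40 to below 50%, 2 of 27 (7.41%) against 58 of 207 (28.0%). In the lowest class it was 1 of 17 (5.88%) against 23 of 117 (19.7%), so that the cluster had the smaller share in each class of base composition.

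**Figure D5:**
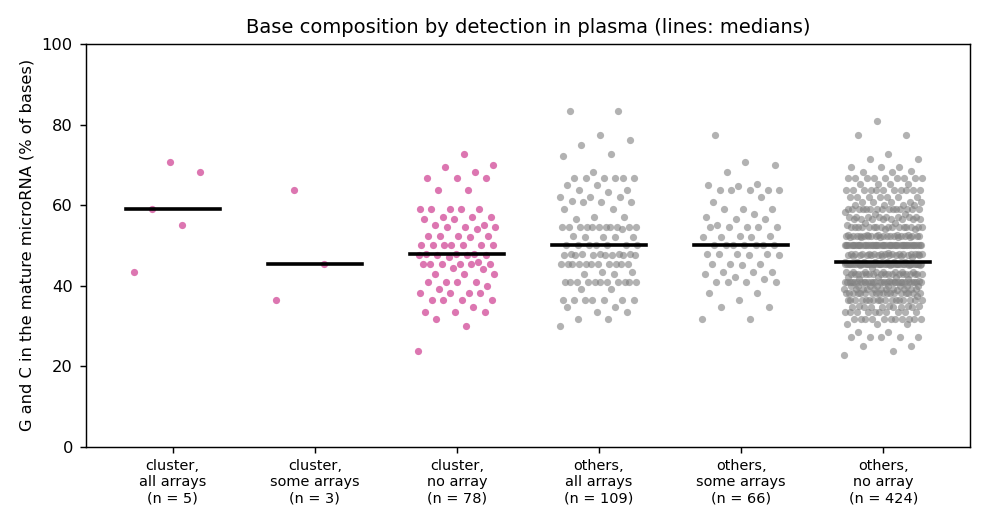
Percent of G and C in the mature sequence (y axis) for cluster members and for all other microRNAs with a RefSeq sequence, by the number of arrays that detected them (x axis). Each point is 1 microRNA and lines mark medians, which are 59.1, 45.5 and 47.8% for members detected on all, some and no arrays and 50, 50 and 45.8% for the others.

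The array also carried 12 microRNAs that RefSeq places between the same hairpins but that the number rule did not include. Of these 11 were detected on no array, and rno-miR-1188-3p was detected on 2, with processed intensities between 5.43 and 7.89. MicroRNAs of 2 lists chosen to stand for blood cells were present in every sample. Of 6 erythrocyte microRNAs 5 were detected on every array, with summed intensities of 2437 to 2751 in arterial and 923.3 to 3884 in venous plasma. The sums are not normalized between arrays. For both lists the lowest and highest sums came from the arrays with the lowest and highest median intensity. Of 6 platelet and leukocyte microRNAs 5 were detected on every array, with sums of 712.8 to 809.7 in arterial and 442.5 to 1018 in venous plasma. The median log2 difference of the 2 lists was -0.04 and 0.01, none of their microRNAs passed the cutoff, and their part in the values of the cluster was not tested.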

How the data were processed

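The authors deposited intensities of each spot from Agilent Feature Extraction (version 11.0.1.1 per the labels, 10.7.3.1 per the file headers), with the local background subtracted and no normalization between arrays, and a table of intensities that the authors quantile normalized with GeneSpring. The members and lists were chosen with earlier results of these data known. Members detected on at least 1 array were named, with the opposite arms of their hairpins and 2 members that the paper names. Each array holds 16 spots for each member, on 2 to 4 probes. Spots flagged as outliers (8.72 to 10.4% of an array) were left out, spots were averaged per probe and probes per microRNA, and the 6 arrays were quantile normalized over 758 microRNAs, floored at 1 and log2 transformed. Detection is the software's gene-level call. The comparison of artery with vein used lmFit and eBayes of limma 3.58.1 (R 4.3.3; two-sided, rat as block) at the methods' cutoff of 0.025 and a Benjamini-Hochberg adjusted p of 0.05 over all 758. The methods' t-test is the plain paired test on the same values. The sample titles give a replicate number, and the paper describes arterial and venous samples matched within each rat. Samples were therefore paired by this number, which is used here as the rat number. Deviations of a rat's 2 samples from the group means correlated at 0.799, 0.686 and 0.635 over the 126 microRNAs detected on every array. These values do not test the pairing. Correlations between samples of different numbers are not given, and both arrays of rat 3 lie on their own slide. The prior of limma carried 0.198 degrees of freedom since many values sat at the floor without spread, and 3.22 over the 126. Sequences and positions come from RefSeq (GRCr8), and no coordinates of the array design were used. The alternatives changed the normalization, intensity, probe summary, floor, filter, test, block and rats. The number of arrays, 3 pairs, limits the precision.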

Additional observations from a re-analysis of the deposited data

How the results depend on the processing

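The count of members past the cutoff was 0 and became 1 under 4 settings, each time rno-miR-300-5p. These were no normalization between arrays, normexp on the raw spot intensity, and no replicate block, which pairs by rat. The other was a fit of just the 201 microRNAs with any detection (unadjusted p = 0.00264, adjusted p = 0.266 from limma). Since rno-miR-300-5p was detected in arterial plasma only, it entered that fit through the group where it is higher. Nothing is therefore read from its p there. Leaving out 1 rat at a time gave 0 to 1, with rno-miR-300-5p past it without rat 1 and rno-miR-770-3p without rat 3 (0.25). The block changed no other call of a member. Counts over all microRNAs under these settings are not given, so that nothing is read from the 1 member called. At the adjusted p no member was called in any of 18 alternatives (limma, and the methods' t-test in 1), and the adjusted p of rno-miR-300-5p ran from 0.266 to 1 over the 17 of them that fitted it. The lowest of these values is that of the fit of the 201.

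The median log2 difference of the 5 members moved to 0.37 without normalization between arrays, where all 126 microRNAs detected on every array shifted to 0.40, and ran from -0.25 to 0.13 with 1 rat left out. For rno-miR-134-5p the direction turned without normalization (0.34), in the authors' table (0.0697) and with normexp (0.00346), and leaving out 1 rat gave -0.38 to 0.13. For rno-miR-370-3p it turned without normalization (0.37), and leaving out 1 rat gave -0.43 to 0.27. For rno-miR-667-3p, whose arterial level is a bound, the sign of the normalized difference turned without normalization (0.19) and with the total gene signal (0.23), and leaving out 1 rat gave -0.26 to 0.0654. The cause was not tested. The direction of rno-miR-300-5p was kept in all 17, with no size given because its venous level is a bound. Those of rno-miR-409a-3p, rno-miR-433-5p, rno-miR-494-3p and rno-miR-770-3p were kept in each alternative that gave them a value, with ranges of -0.62 to -0.03, -1.24 to -0.03, 0.05 to 0.80 and 0.02 to 0.51. The difference in members detected per array ran from -0.33 to 1. Signals near background limit all members but rno-miR-134-5p, rno-miR-370-3p, rno-miR-494-3p and rno-miR-770-3p.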
